A study of Mus musculus with 8 samples.

Results

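The 4 RNA-seq libraries of articular cartilage taken after destabilization of the medial meniscus (DMM) were compared by time, 4 weeks against 2 weeks after surgery. They are 4 of the 8 libraries of the series, chosen by their labels alone: WT at 2 weeks, Oscar-/- (KO) at 2 weeks, WT at 4 weeks and KO at 4 weeks. DMM cuts the ligament that anchors the medial meniscus of the knee, so that the joint is loaded unevenly and its cartilage wears over weeks. OSCAR is a collagen receptor of the osteoclast lineage, and the study asked what its loss changes in the injured joint. Each library was 1 pool of 10 cartilages of male C57BL/6 mice, so each genotype and week had 1 library, and the KO mice lack Oscar in every cell. The labels give every animal as 10 weeks old, whereas the treatment notes put DMM at 10 to 12 weeks of age, so age at sampling, which also rises between the weeks, was not resolved. The 4 sham-operated libraries, of the same genotypes and weeks, were used to set each week change beside that of joints without the injury.

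A joint after meniscal surgery passes from wound repair, in which fibroblasts lay down collagen III and other provisional matrix, towards remodelling, in which that matrix is replaced. Cartilage itself holds collagen II, aggrecan and many smaller matrix proteins made by chondrocytes, and is degraded by metalloproteinases and aggrecanases. Beneath it lie bone and marrow, which carry blood-forming cells, and a dissected cartilage can hold some of both.

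Levels are given as scaled CPM, the reads of a gene as a share of its library after TMM scaling of the 8 libraries, times 1e+06. A change is the log2 ratio of the 4-week to the 2-week level, with its standard error (SE). It was tested with edgeR's quasi-likelihood F-test over 12538 protein-coding genes, with genotype as the pair, and adjusted p-values are those of Benjamini and Hochberg over all of these genes. The model leaves 1 residual degree of freedom, namely the difference between the WT and the KO change. That difference enters the error and could not itself be tested. For each gene edgeR combined it with a spread shared across genes, worth 11.1 prior degrees of freedom. A gene whose change differed in size between the genotypes could thus still be called. Because each pool is a single library, a p-value rests on how alike the 2 genotypes' week changes were, in the gene and across genes. It does not measure the spread between animals.

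The libraries held 13189181 to 18533609 expected counts. Hemoglobin genes took 30.7% to 37.0% of TPM in the DMM libraries. Hemoglobin is made by red cells and their precursors. Defining markers of cartilage were present in all 4, with the 22 chondrocyte matrix genes summing to 1845 to 2314 TPM. In the same libraries erythroid genes summed to 309283.5 to 372777 TPM and late neutrophil granule genes to 68904 to 94657.7 TPM. RNA of blood and marrow cells thus far exceeded that of the cartilage markers. Oscar was at 6.85 and 6.82 scaled CPM in WT at 2 and 4 weeks and had 0 counts in both KO libraries, which matches the labels. A count of 0 allows up to 3 counts. Technical values also changed between the weeks: the mean fragment length fell from 174.3 and 177.4 bases at 2 weeks to 149.2 and 145.7 bases at 4 weeks, and the sequencing lane was 5 for the 2-week libraries, 3 for WT at 4 weeks and 1 for KO at 4 weeks. Week therefore cannot be told apart from lane or fragment length, also in the sham libraries, and the part of these in any week change was not tested. Over 3 equal groups of genes by transcript length, the median change ran from -0.03 to 0.00, and by GC content from -0.04 to 0.03. Within single genotypes the range was wider, from -0.07 to 0.08 by GC content in WT after DMM and from -0.20 to 0.14 by length in WT after sham.

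Between 2 and 4 weeks after DMM, 605 genes rose and 505 fell at an adjusted p under 0.05, which is 4.83% and 4.03% of the genes tested (8.85% in all). On the TPM scale (limma), where the median over all genes lies at 0.16, the split was 1813 against 172, and with total-count scaling (median 0.06) it was 1448 against 408. The changes were mostly small, with a median of 0.47 among the genes that rose and -0.40 among those that fell. A change of at least 2-fold in the same direction in both genotypes was reached by 94 genes upwards and 18 downwards, 0.75% and 0.144% of the genes tested. The weeks did not overlap in 596 of the 605 genes that rose and 477 of the 505 that fell. Non-overlap of a called gene therefore adds no support to its call. Shares of 4.83% higher and 4.03% lower are the background for each count of list members below. Of the 10 genes with the lowest p among those that rose, 8 were in the megakaryocyte and platelet list and the other 2 are also platelet genes. Of the 10 with the lowest p among those that fell, 7 were encoded by the mitochondrial genome, and the others were Col3a1, Dpt and Fcrla.

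Most of these changes ran the same way after sham surgery. Of the 605 genes that rose after DMM, 552 (91.2%) were also higher at 4 weeks in both sham pairs, against 32.1% of all genes tested. Of the 505 that fell, 456 (90.3%) were lower in both sham pairs, against 37.3% of all genes. The median sham changes of the genes that rose were 0.49 in WT and 0.50 in KO, close to the 0.47 measured after DMM. When the week change after DMM was tested against that after sham (edgeR quasi-likelihood F-test over the 8 libraries), 51 genes were called higher after DMM and 4 lower, 0.407% and 0.0319% of the genes tested (0.439% in all). On the TPM scale (limma), where the median difference lies at -0.16, the split was 20 against 8. Without the KO sham library at 4 weeks, 241 genes were called higher and 193 lower, and without any other single library 36 to 122 and 4 to 28.

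**Figure D1:**
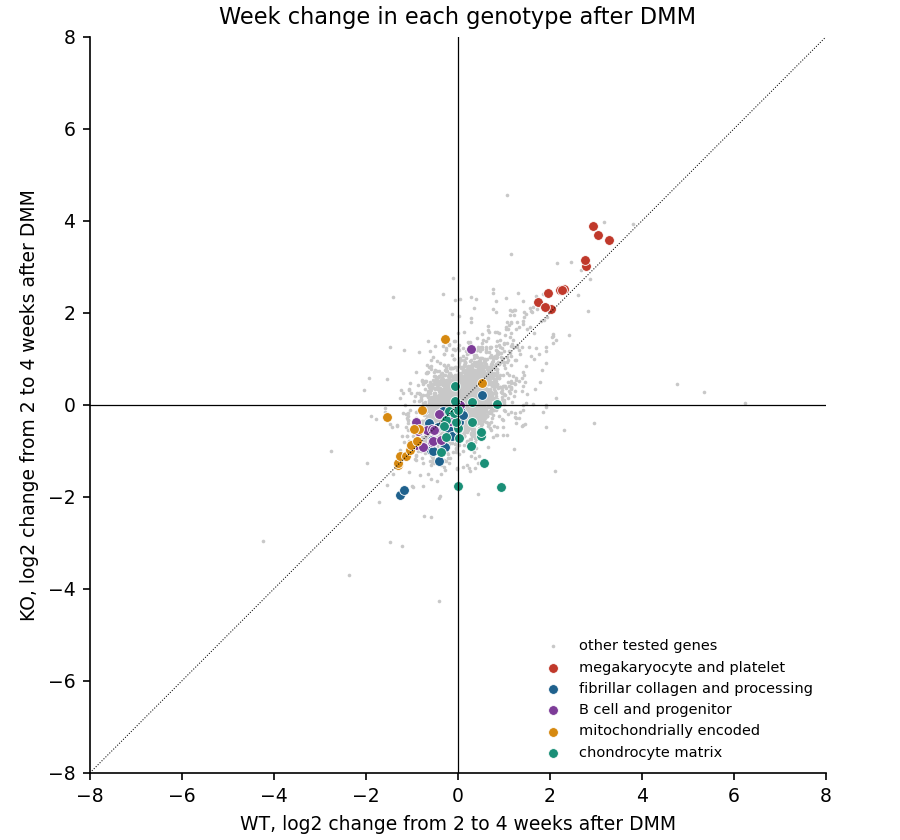
Log2 change from 2 to 4 weeks after DMM in WT (horizontal axis) and in KO (vertical axis), with 1 point for each of the 12538 genes tested; 5 gene lists are coloured, and the dotted line marks equal changes. The 12 megakaryocyte and platelet genes lie at the upper right near the line, and most chondrocyte matrix genes lie below it, lower in KO than in WT.

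Across genes, the WT and KO changes had a Pearson's r of 0.54 (12538 genes, which are not independent). For comparison r was 0.53 between the 2 sham pairs. Within each surgery and week WT and KO came from separate pools, while the 2-week libraries shared a lane.

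The megakaryocyte and platelet genes rose most. Megakaryocytes are the marrow cells that shed platelets, and platelets carry adhesion receptors for collagen and von Willebrand factor, granules filled with chemokines, and a beta-tubulin of their own. All 12 genes of the list were tested and all 12 rose, where 4.83% of all genes did; the median change was 2.42 (2.28 in WT, 2.51 in KO), against -0.01 over all genes. In none of the 12 did a 2-week library reach the level of a 4-week library. Both 4-week libraries lay above both 2-week libraries in 22.4% of all genes tested, but in 596 of the 605 that rose. For called genes this was thus nearly given.

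To show the upstream region of genes that moved together, the 250 bases before the RefSeq start were searched on both strands for AGATAA, the letters of the GATA motif bound by the megakaryocyte factor GATA1, and for CCGGAA, the core bound by ETS factors. Of the 12 genes, 11 had a RefSeq promoter (GRCm38.p6). AGATAA was found in 3 of these 11, against 11.4% of the windows of 27025 genes, and CCGGAA in 0 of the 11, against 13.6%. The 3 windows with AGATAA are printed in the direction of the gene, with the match in capitals (in a window where the letters lie on the other strand, their reverse complement TTATCT is in capitals). A match describes the letters only. Other forms of these motifs were not searched, so a window without a match was not shown to lack a GATA or ETS site.
Gp6, chr7:4397745-4397994, minus strand: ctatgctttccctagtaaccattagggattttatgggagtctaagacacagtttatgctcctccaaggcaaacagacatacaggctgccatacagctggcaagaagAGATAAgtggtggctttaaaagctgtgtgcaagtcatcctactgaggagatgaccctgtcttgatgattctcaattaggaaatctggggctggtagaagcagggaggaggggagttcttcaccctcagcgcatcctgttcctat
Gp5, chr16:30310782-30311031, minus strand: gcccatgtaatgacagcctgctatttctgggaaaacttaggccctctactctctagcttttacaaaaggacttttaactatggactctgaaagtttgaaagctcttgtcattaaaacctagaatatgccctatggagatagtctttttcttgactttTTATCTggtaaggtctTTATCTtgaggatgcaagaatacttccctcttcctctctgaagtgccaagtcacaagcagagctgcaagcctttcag
F2rl2, chr13:95696670-95696919, plus strand: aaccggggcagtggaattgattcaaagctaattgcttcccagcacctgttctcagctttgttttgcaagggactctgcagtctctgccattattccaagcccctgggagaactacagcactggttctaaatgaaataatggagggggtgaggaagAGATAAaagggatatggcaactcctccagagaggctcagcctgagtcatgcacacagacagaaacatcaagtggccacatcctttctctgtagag

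Among granule proteins, Ppbp, the platelet basic protein cleaved to the neutrophil attractant CXCL7, was at 35.8 scaled CPM in WT and 23.8 in KO at 2 weeks and at 273 and 357 at 4 weeks. Its change was 3.39 (SE 0.17, edgeR adjusted p = 1.4e-07). Pf4, platelet factor 4, went from 32.2 and 29.7 to 108 and 140 scaled CPM (change 1.98, SE 0.11, edgeR adjusted p = 3.8e-07). Both genes rose in each genotype, Ppbp by 2.93 in WT and 3.90 in KO, and Pf4 by 1.74 and 2.23.

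Of the adhesion receptors, Itga2b, the alpha chain of the fibrinogen receptor, rose from 28.4 and 28.9 scaled CPM to 116 and 124 (change 2.06, SE 0.08, edgeR adjusted p = 3.0e-08). Its partner Itgb3, also used by osteoclasts to hold bone, rose from 71.3 and 52.3 to 174 and 181 scaled CPM (change 1.53, SE 0.10, edgeR adjusted p = 2.4e-06). Gp6, the collagen receptor of platelets, rose from 1.74 and 1.41 to 15.4 and 19.8 scaled CPM (change 3.44, SE 0.20). The von Willebrand factor receptor chains Gp9 and Gp1bb and their partner Gp5 rose by 2.02, 2.38 and 2.98. Thus every chain named here was higher in both 4-week pools than in both 2-week pools. Tubb1, the beta-tubulin of the platelet's marginal band, had the steepest rise of the list, from 3.43 and 3.11 to 34.7 and 38.9 scaled CPM (change 3.48, SE 0.14, edgeR adjusted p = 3.0e-08). Treml1, a receptor stored in platelet granules, rose by 2.94. Outside the list, Alox12, the platelet 12-lipoxygenase, rose by 2.43 and Clec1b, the podoplanin receptor CLEC-2, by 2.83.

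**Figure D2:**
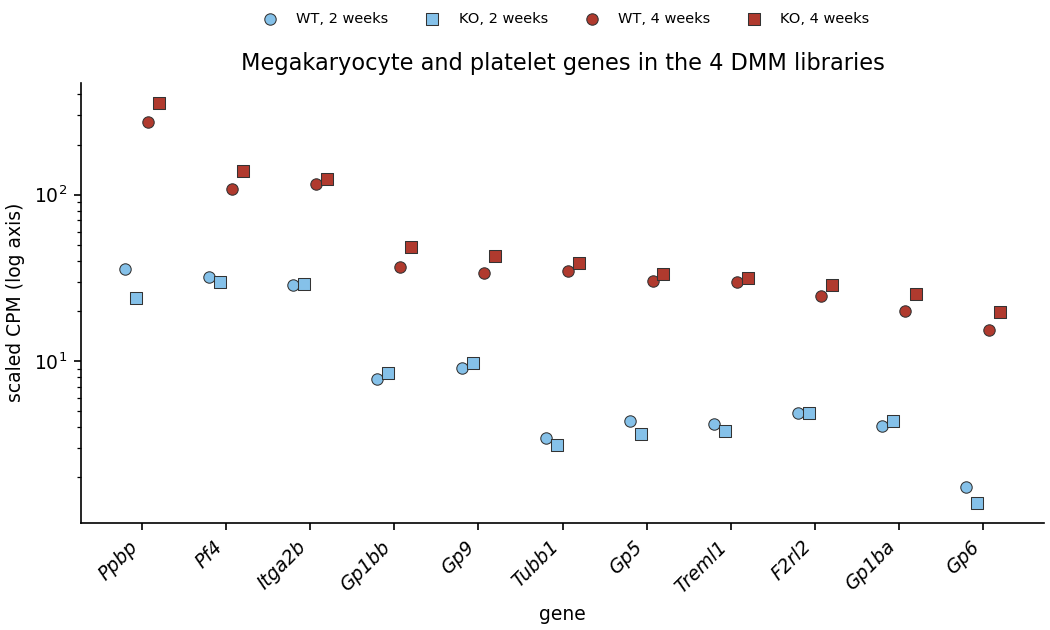
Scaled CPM (log axis) of 11 of the 12 megakaryocyte and platelet genes in the 4 DMM libraries; blue marks 2 weeks, red 4 weeks, circles WT and squares KO. For Ppbp the 2-week libraries lie at 35.8 and 23.8 and the 4-week libraries at 273 and 357, and no gene shown has overlapping weeks.

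The rise was of like size in sham joints, where the list's median change was 2.05 in WT and 2.22 in KO. None of the 12 genes was called different between DMM and sham by edgeR, whereas at an unadjusted p under 0.05 the change was larger after DMM in 6 and smaller in 0. For Itga2b the difference was 0.24, with a 95% interval from -0.04 to 0.53, and for Pf4 it was 0.62, from 0.27 to 0.97. The summed level of the list was 151 and 126 TPM in the 2-week and 803 and 862 TPM in the 4-week DMM libraries, and 179 and 116 against 938 and 560 TPM in sham. The 15 erythroid genes had a median of -0.07, which turned to 0.14 on the log2(TPM + 1) scale, and no gene called (edgeR; 0 higher and 2 lower at an unadjusted p under 0.05). In bulk tissue more cells or platelets in a pool and more RNA per cell cannot be told apart.

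Genes of connective tissue matrix fell. Fibrillar collagens are the ropes of tendon, bone and scar, and their chaperones, hydroxylases and cross-linking oxidases are made with them. Of the 24 genes tested of this list, 14 fell and 0 rose (edgeR; 4.03% and 4.83% of all genes; at an unadjusted p under 0.05, 17 lower and 0 higher), with a median change of -0.38 (-0.27 in WT, -0.51 in KO). Col3a1, the collagen of early repair tissue (chromosome 1, bases 45311538 to 45349706, GRCm38), was at 1072 and 849 scaled CPM at 2 weeks and 448 and 217 at 4 weeks, in WT and KO. It fell by 1.61 on the log2 scale (SE 0.13, edgeR adjusted p = 1.1e-05), more than any other collagen named here, and it fell in both genotypes. Col1a1 went from 3533 and 3086 to 2639 and 1317 scaled CPM (change -0.82, SE 0.14, edgeR adjusted p = 0.0035). Its partner chain Col1a2 changed by -0.77 and Col5a2, which starts new fibrils, by -0.78 (SE 0.10 and 0.09). For each of these 4 collagens the 2-week libraries were the higher ones and the KO library at 4 weeks was the lowest.

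Matricellular and wound matrix genes, which shape the matrix around repairing cells, fell in 12 and rose in 2 of 23. Of all genes, 4.03% fell and 4.83% rose. At an unadjusted edgeR p under 0.05, 14 of the list were lower and 3 higher. Fbn1, the fibrillin of microfibrils, went from 43.4 and 35.6 to 22.9 and 15.4 scaled CPM (change -1.06, SE 0.10, edgeR adjusted p = 5.0e-05). Cthrc1, a secreted protein of injured and remodelling tissue, changed by -1.01 and Aspn, the small proteoglycan asporin, by -0.94. Fmod, fibromodulin, and Tnc, tenascin C, changed by -0.55 and -0.49. The fall of Fmod was mainly in KO, from 135.3 to 66.7 scaled CPM, against 152.8 to 141.4 in WT, so that the weeks overlapped. The 2 that rose were Thbs1, thrombospondin 1, which platelets also store, from 69.2 and 61.1 to 153 and 182 scaled CPM (change 1.35, SE 0.10, edgeR adjusted p = 3.7e-06), and Tagln, a contractile protein of smooth muscle and myofibroblasts (change 0.74, SE 0.12, edgeR adjusted p = 0.0029). For both genes each 4-week library lay above each 2-week library.

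Fibroblast markers fell in 8 and rose in 3 of 16, against 4.03% and 4.83% of all genes. At an unadjusted edgeR p under 0.05, 11 were lower and 3 higher. Dpt, dermatopontin, went from 86.9 and 67.3 to 45.9 and 30.9 scaled CPM (change -1.02, SE 0.08, edgeR adjusted p = 1.4e-05), and Mfap5 and Col14a1 changed by -0.93 and -0.78. Those that rose were Gsn, Pi16 and Thy1, a surface marker of fibroblasts that T cells of the mouse also carry (change 0.66). Of the 8 tendon and ligament genes tested, 4 fell and 0 rose (edgeR; at an unadjusted p under 0.05, 5 lower and 0 higher): Kera, Fmod, Tnc and Tnmd. Tnmd, tenomodulin, went from 3.25 and 3.41 to 1.89 and 0.53 scaled CPM (change -1.52, SE 0.39, edgeR adjusted p = 0.032), and the tendon factor Scx from 1.92 and 2.15 to 0.94 and 0.88 (change -1.15, edgeR adjusted p = 0.066), which did not pass. C1qtnf3, a secreted relative of complement C1q made in cartilage and connective tissue, had a steeper fall than any of these, from 5.81 and 10.7 to 1.02 and 0.71 scaled CPM (change -3.27, edgeR adjusted p = 5.0e-05). In the sham pairs C1qtnf3 changed by 0.89 and -0.17, and the difference from DMM did not pass (-3.57, edgeR adjusted p = 0.098). For Col3a1 the sham changes were -0.58 and -0.76, and the difference was -0.94 (95% interval -1.37 to -0.50, edgeR adjusted p = 0.089).

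**Figure D3:**
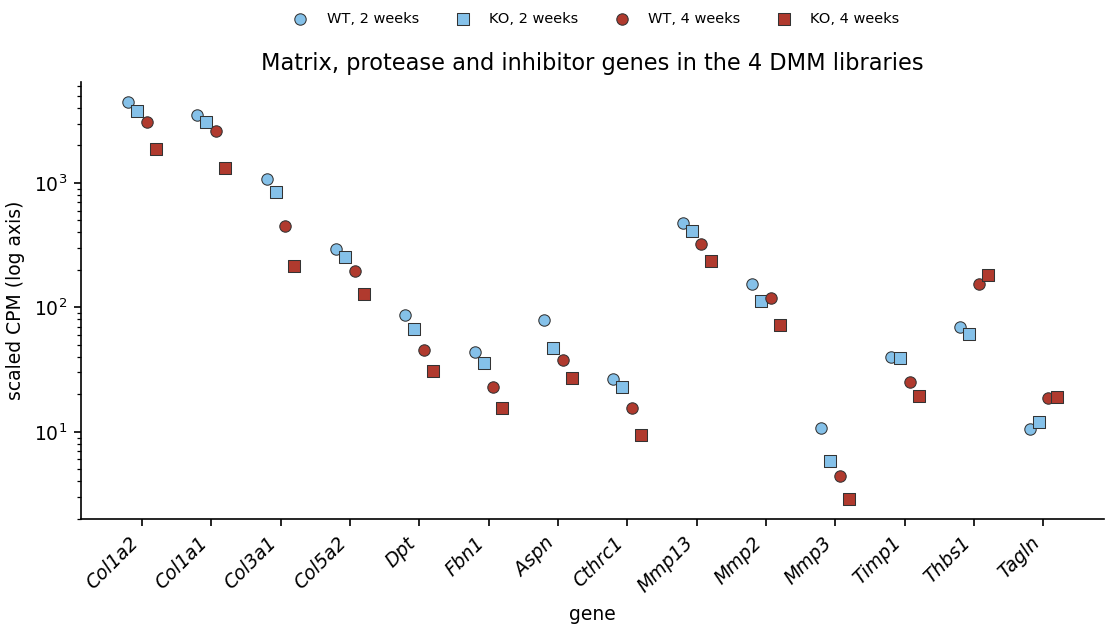
Scaled CPM (log axis) of 14 matrix, protease and inhibitor genes in the 4 DMM libraries, with blue for 2 weeks, red for 4 weeks, circles for WT and squares for KO. Col3a1 runs from 1072 and 849 down to 448 and 217, while Thbs1 runs from 69.2 and 61.1 up to 153 and 182.

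No gene of the lists of matrix-degrading enzymes and protease inhibitors passed the test as higher at 4 weeks. Of the 15 enzymes tested, 4 fell and 0 rose (edgeR; at an unadjusted p under 0.05, 8 lower and 2 higher), while the list's median turned to 0.021 on the log2(TPM + 1) scale. Mmp13, the collagenase that cuts collagen II and is also made by hypertrophic chondrocytes and osteoblasts, went from 474 and 411 to 323 and 238 scaled CPM (change -0.67, SE 0.08, edgeR adjusted p = 3.3e-04). Mmp3, stromelysin, went from 10.8 and 5.85 to 4.43 and 2.89 scaled CPM (change -1.17, SE 0.19, edgeR adjusted p = 0.0029). For Mmp13 and Mmp3 both 4-week pools lay below both 2-week pools. So they did in 23.3% of all genes tested and in 477 of the 505 genes that fell. Mmp2, a gelatinase of stromal cells, went from 155 and 112 to 119 and 71.6 scaled CPM (change -0.51, SE 0.08, edgeR adjusted p = 0.0026); here the WT library at 4 weeks lay above the KO library at 2 weeks, so that the weeks overlapped and the fall was seen within each genotype. Adamts9 changed by -0.57. Adamts5, the aggrecanase, was at 20.2 and 19.5 at 2 weeks and 16.5 and 20.7 scaled CPM at 4 weeks, with no direction in common (change -0.10, edgeR adjusted p = 0.65). Among the 10 inhibitors tested 3 fell and 0 rose (edgeR; 3 lower and 1 higher at an unadjusted p under 0.05). Timp1, which blocks metalloproteinases, went from 39.6 and 39.4 to 25.3 and 19.2 scaled CPM (change -0.83, SE 0.11, edgeR adjusted p = 5.2e-04), and the serpin Serpinf1 changed by -0.51.

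Cartilage genes did not move together after DMM. Of the 21 chondrocyte matrix genes tested, 3 fell and 0 rose (edgeR; at an unadjusted p under 0.05, 7 lower and 1 higher), and the median was 0.00 in WT and -0.47 in KO. Col11a1, a minor collagen inside the collagen II fibril, went from 148 and 143 to 114 and 69.6 scaled CPM (change -0.70, SE 0.12, edgeR adjusted p = 0.0038). Hapln1, the link protein that ties aggrecan to hyaluronan, changed by -0.48 and Chad, the cell-binding matrix protein chondroadherin, by -0.30. In all 3 the KO library at 4 weeks was the lowest. Acan, the core protein of aggrecan, was at 172 and 196 scaled CPM at 2 weeks and 174 and 119 at 4 weeks, the KO library again being the lowest (change -0.35, SE 0.13, edgeR adjusted p = 0.11). Col2a1, the main collagen of cartilage, went up in WT, from 506 to 752 scaled CPM, and down in KO, from 761 to 315, so that its mean change of -0.35 (SE 0.29, edgeR adjusted p = 0.50) describes neither genotype. Col9a1, of the collagen coating that fibril, stayed at 18.8 scaled CPM in WT and went from 22.8 to 6.65 in KO (change -0.78, edgeR adjusted p = 0.098).

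Set against sham, 7 of the 51 genes with a higher week change after DMM were chondrocyte matrix genes, and these fell in both sham pairs. They are 7 of the 21 tested (edgeR adjusted p under 0.05; 0.407% of all genes were called in this direction), and 0 were called lower (10 higher and 2 lower at an unadjusted p under 0.05). The list's median sham change was -0.82 in WT and -0.68 in KO. Its summed level after sham was 3676 and 5546 TPM at 2 weeks and 2483 and 3301 TPM at 4 weeks, in WT and KO. After DMM it was 1994 and 1845 TPM at 2 weeks and 2314 and 1885 TPM at 4 weeks. A higher week change after DMM was thus set against sham pools that stood highest at 2 weeks and then fell. Chad was at 697 and 705 scaled CPM at 2 weeks and 584 and 559 at 4 weeks after DMM, and at 1739 and 2424 against 661 and 798 after sham (difference 1.21, SE 0.14, edgeR adjusted p = 0.0064). Snorc, a proteoglycan of chondrocytes, was at 20.0 and 16.5 against 24.5 and 17.3 after DMM, and at 46.7 and 48.6 against 17.9 and 23.8 after sham (difference 1.39, edgeR adjusted p = 0.0064). For both genes the 2 sham pools at 2 weeks were the highest of the 8 libraries. Cilp, cartilage intermediate layer protein, its relative Cilp2 and the secreted Cytl1 had differences of 1.01, 1.204 and 1.22. The others of the 7 were Comp and Ucma, with 1.07 each. Frzb, a secreted WNT inhibitor of articular cartilage, had the lowest p of the comparison; it was at 26.5 and 33.0 against 30.1 and 31.2 scaled CPM after DMM, and at 62.5 and 88.7 against 20.1 and 33.4 after sham (difference 1.57, SE 0.15, edgeR adjusted p = 0.0033). The melanotransferrin gene Meltf and Ndufa4l2, a mitochondrial protein induced by hypoxia, had differences of 1.03 and 1.14. The 4 genes with a lower week change after DMM were Lars2, Zbed6, B3gnt2 and Mup22; Lars2, a mitochondrial leucyl-tRNA synthetase, was at 1078 and 1113 scaled CPM at 2 weeks and 1825 and 952 at 4 weeks after DMM, and at 354 and 683 against 1728 and 7814 after sham. The calls depended on the model: when the genotype-by-surgery term was left out, 0 genes were called in either direction (187 higher and 70 lower at an unadjusted p under 0.05).

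Tnfrsf11b encodes osteoprotegerin (OPG), a soluble decoy receptor that binds both RANKL, the osteoclast factor, and the death ligand TRAIL. It was at 34.6 scaled CPM in WT and 27.6 in KO at 2 weeks, and at 46.5 and 37.1 at 4 weeks, higher within each genotype by about the same step (change 0.43, SE 0.08, edgeR adjusted p = 0.0093). After sham it went down, from 70.4 to 46.7 scaled CPM in WT and from 105 to 63.8 in KO. The difference between the surgeries was 1.08 (95% interval 0.81 to 1.35, edgeR adjusted p = 0.0064). The direction after DMM and after sham was thus opposite in both genotypes. Its ligands did not pass: Tnfsf11, RANKL, went from 5.11 in both genotypes to 4.64 and 3.0 scaled CPM (change -0.43, edgeR adjusted p = 0.27), and Tnfsf10, TRAIL, from 9.87 and 7.55 to 8.42 and 8.18 (change -0.06, edgeR adjusted p = 0.84). Tnfrsf21, death receptor 6, rose by 0.30. Of the 8 death ligands and receptors tested, Tnfrsf11b and Tnfrsf21 were the 2 that rose and 0 fell (edgeR; 3 and 0 at an unadjusted p under 0.05).

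**Figure D4:**
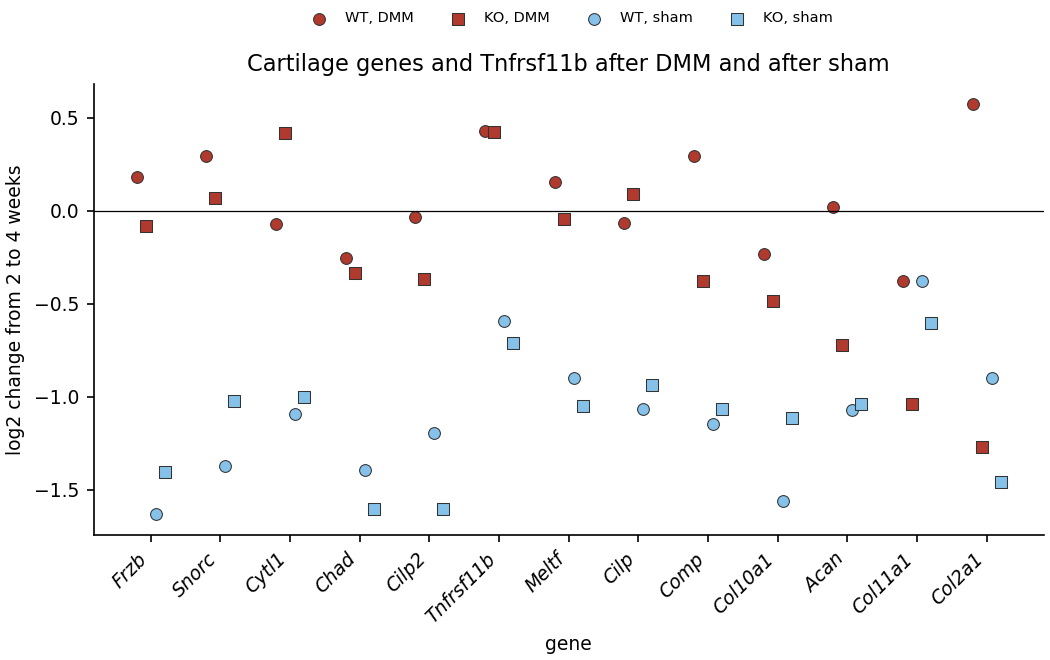
Log2 change from 2 to 4 weeks of 12 cartilage-associated genes and Tnfrsf11b; red marks DMM, blue sham, circles WT and squares KO. For Frzb, Snorc, Cytl1, Chad and Tnfrsf11b both DMM points lie above both sham points, and for Col2a1 the DMM points lie on opposite sides of 0.

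Bone genes were mixed. Of the 18 osteoblast and osteocyte genes tested, 2 rose and 4 fell (edgeR), against 4.83% and 4.03% of all genes. At an unadjusted edgeR p under 0.05, 2 of the list were higher and 6 lower. The median was -0.12 (-0.06 in WT, -0.27 in KO), which turned to 0.0069 on the log2(TPM + 1) scale. Sost, the WNT inhibitor sclerostin of osteocytes, rose from 17.4 and 23.2 to 65.7 and 43.5 scaled CPM (change 1.42, SE 0.17, edgeR adjusted p = 3.3e-04), and Mepe, another osteocyte gene, from 25.7 and 30.4 to 57.3 and 39.0 (change 0.77, SE 0.14, edgeR adjusted p = 0.0064). Spp1, osteopontin, went from 1917 and 1775 to 1448 and 1411 scaled CPM (change -0.37, edgeR adjusted p = 0.0093). Sost and Mepe were thus the 2 of the list that rose, while Col1a1, Col1a2 and Spp1, which osteoblasts make along with other cells, fell. In the sham pairs Sost changed by 0.37 and 0.01 and Mepe by -0.26 and -0.43, and Mepe was called higher after DMM (difference 1.11, edgeR adjusted p = 0.044).

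Blood-forming lineages moved in different directions. Genes of B cells and their progenitors fell in 13 and rose in 1 of 16, with a median of -0.56 (-0.53 in WT, -0.55 in KO). Of all genes, 4.03% fell and 4.83% rose. At an unadjusted edgeR p under 0.05, 14 of the list were lower and 1 higher. Igll1, a part of the pre-B cell receptor, went from 31.8 and 25.5 to 16.9 and 13.9 scaled CPM (change -0.89, SE 0.10, edgeR adjusted p = 2.5e-04). Rag2, which cuts antigen receptor genes, and Dntt, which adds bases to their joints, changed by -0.85 and -0.72, and Fcrla, an Fc receptor-like protein of B cells, by -0.88 (edgeR adjusted p = 2.9e-05). In each of these 4 genes both 4-week pools lay below both 2-week pools, as in 23.3% of all genes and 477 of the 505 that fell. Cr2, the complement receptor of mature B cells, was the 1 that rose, from 4.12 and 4.74 to 5.01 and 11.1 scaled CPM (change 0.81, edgeR adjusted p = 0.044). In the plasma cell list, Jchain, which joins IgA and IgM units, rose from 68.3 and 59.9 to 141 and 189 scaled CPM (change 1.35, SE 0.12, edgeR adjusted p = 2.1e-05), whereas Irf4 and Mzb1 changed by -0.77 and -0.41.

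T and NK cell genes rose in 6 and fell in 1 of 14, with a median of 1.23 that was uneven between the genotypes (0.39 in WT, 1.54 in KO). Of all genes, 4.83% rose and 4.03% fell. At an unadjusted edgeR p under 0.05, 11 of the list were higher and 1 lower. Ccl5, a chemokine of activated T and NK cells, went from 4.18 and 1.93 to 10.4 and 10.9 scaled CPM (change 1.80, SE 0.24, edgeR adjusted p = 7.3e-04). Cd3e, of the T cell receptor complex, went from 0.75 and 0.59 to 1.96 and 2.89 scaled CPM, and the NK receptor Ncr1 from 0.35 and 1.33 to 1.89 and 4.12 (changes 1.80 and 1.88, SE 0.38 and 0.35). Gzma, a granzyme, changed by 1.52. The gene that fell was Il7r, the IL-7 receptor of T cells and early lymphoid cells (change -0.63). Cd3e, Ncr1 and Gzma stayed under 5 scaled CPM in every DMM library.

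Eosinophil, basophil and mast cell genes rose in 7 of 11 and fell in 0 (edgeR; 8 and 0 at an unadjusted p under 0.05), with a median of 0.48 (0.43 in WT, 0.50 in KO). Prg2, the major basic protein of eosinophil granules, went from 549 and 674 to 950 and 994 scaled CPM (change 0.67, SE 0.08, edgeR adjusted p = 3.2e-04). Ear1 and Ear2, eosinophil ribonucleases of a family of near-identical copies whose reads may be split between them, changed by 0.73 and 0.56. Fcer1a, the IgE receptor chain of basophils and mast cells, went from 3.83 and 2.67 to 7.26 and 6.77 scaled CPM (change 1.11, SE 0.21). In each of these 4 genes the weeks did not overlap, as in 22.4% of all genes in this direction and 596 of the 605 that rose. Late neutrophil granule and surface genes rose in 4 of 14 by smaller steps, where 4.83% of all genes rose. Retnlg, Padi4, Mmp25 and the chemokine receptor Cxcr2 changed by 0.42, 0.43, 0.44 and 0.38. For Mmp25 the weeks overlapped, with 40.4 scaled CPM in KO at 4 weeks and 42.7 in WT at 2 weeks. At an unadjusted edgeR p under 0.05, 10 of the list were higher and 0 lower.

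Of the 16 tissue macrophage and monocyte genes, 4 rose and 0 fell (edgeR; 6 and 1 at an unadjusted p under 0.05): C1qa, C1qb, Cd163 and C1qc, a chain of complement C1q made by macrophages, from 55.1 and 54.8 to 67.3 and 81.7 scaled CPM (change 0.43, SE 0.09, edgeR adjusted p = 0.0096). Cd163, the hemoglobin scavenger receptor, rose by 0.87. In the IL-1 and IL-6 family, 4 of 14 rose and 0 fell (edgeR; 4 and 1 at an unadjusted p under 0.05). Il1a went from 0.75 and 0.52 to 3.85 and 3.53 scaled CPM (change 2.51, SE 0.34, edgeR adjusted p = 7.7e-04), and Il1b from 52.3 and 53.2 to 85.1 and 73.1 (change 0.58, SE 0.08, edgeR adjusted p = 0.0012). Osm, oncostatin M, rose by 0.83 and Il1r2, the decoy receptor that traps IL-1, by 0.41. Both ligands and the decoy were thus higher at 4 weeks in both genotypes, and in sham joints Il1b changed by 0.92 and 1.18.

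Prostanoid genes rose in 3 of 15, Tbxas1, Ptgir and Ptgs1, where 4.83% of all genes rose. At an unadjusted edgeR p under 0.05, 6 of the list were higher and 1 lower. Tbxas1, thromboxane synthase, which platelets and macrophages carry, went from 16.8 and 19.7 to 33.4 and 30.7 scaled CPM (change 0.82, SE 0.11, edgeR adjusted p = 6.9e-04), and Ptgir, the prostacyclin receptor, rose by 0.70. Ptgs2, the inducible cyclooxygenase COX-2, was at 3.89 and 4.00 at 2 weeks and 7.69 and 4.30 scaled CPM at 4 weeks, higher mainly in WT (change 0.59, edgeR adjusted p = 0.15). Immediate-early genes, which respond within minutes to stress and handling, rose in 5 of 20 (Dusp1, Zfp36, Egr3, Fosb and Fos). The share over all genes was 4.83%, and at an unadjusted edgeR p under 0.05, 7 of the list were higher and 1 lower. Fosb went from 6.56 and 4.07 to 14.3 and 6.42 scaled CPM and Fos from 68.9 and 67.1 to 114 and 76.8 (changes 0.94 and 0.47). Among the 4 DMM libraries, Fosb and Fos were both highest in WT at 4 weeks. For Fosb the KO library at 4 weeks lay below the WT library at 2 weeks, so that the weeks overlapped.

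Transcripts of the mitochondrial genome fell. Of its 13 protein-coding genes, which encode subunits of the respiratory chain and ATP synthase, 11 fell and 1 rose, with a median of -0.89 (-1.03 in WT, -0.78 in KO). The largest fall was in mt-Cytb, of complex III, from 8590 and 9973 to 3468 and 4032 scaled CPM (change -1.31, SE 0.07, edgeR adjusted p = 4.5e-07). mt-Nd2, of complex I, changed by -1.28 and mt-Co1, of complex IV, by -0.95. mt-Nd6, which lies on the other strand, changed by -0.84. mt-Atp6, whose reading frame overlaps that of mt-Atp8, was the 1 that rose (change 0.49, SE 0.07, edgeR adjusted p = 0.0013). The share of TPM taken by mitochondrial transcripts went from 7.75% and 7.17% to 3.94% and 3.89% after DMM. After sham it went from 4.75% to 4.09% in WT, a smaller fall, and from 7.99% to 4.90% in KO. The 28 nuclear genes of the respiratory chain had a median of -0.11 (0.064 on the log2(TPM + 1) scale), with 1 that fell, Uqcrc2, and 0 that rose (edgeR; 7 and 0 at an unadjusted p under 0.05). Sham changes of the mitochondrial list were -0.82 and -0.87, and the 4-week libraries of both surgeries had the shorter fragments, whose part was not tested.

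Cytosolic ribosomal protein genes fell in 11 of 40 and cell cycle genes in 6 of 34, both with small steps (medians of -0.14 and -0.15, which turned to 0.0023 and 0.059 on the log2(TPM + 1) scale) and 0 that rose (edgeR; at an unadjusted p under 0.05, 1 ribosomal and 0 cell cycle genes higher). Mki67, a marker of dividing cells, went from 1039 and 1279 to 891 and 935 scaled CPM (change -0.34, edgeR adjusted p = 0.022), and Rrm1, which makes DNA building blocks, from 320 and 408 to 268 and 324 (change -0.30). For Rrm1 the KO library at 4 weeks lay above the WT library at 2 weeks, so that the weeks overlapped.

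Genes of tissue next to cartilage also differed between the pools. Skeletal muscle genes rose in 7 of 13 after DMM, where 4.83% of all genes rose. At an unadjusted edgeR p under 0.05, 9 of the list were higher and 0 lower. Myh4, a fast myosin, went from 6.68 and 5.77 to 25.4 and 13.2 scaled CPM (change 1.61, SE 0.17, edgeR adjusted p = 1.3e-04). Tnnt3, a fast troponin, rose by 0.94. The list summed to 74.0 and 74.6 TPM at 2 weeks and 168 and 109 TPM at 4 weeks. In the sham pairs its median change was -1.64 in WT and 1.12 in KO, so the muscle level of a pool varied in both directions. Adipocyte genes had a median of -0.36 in WT and 1.16 in KO and none of the 9 was called (edgeR; 2 higher and 0 lower at an unadjusted p under 0.05).

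**Figure D5:**
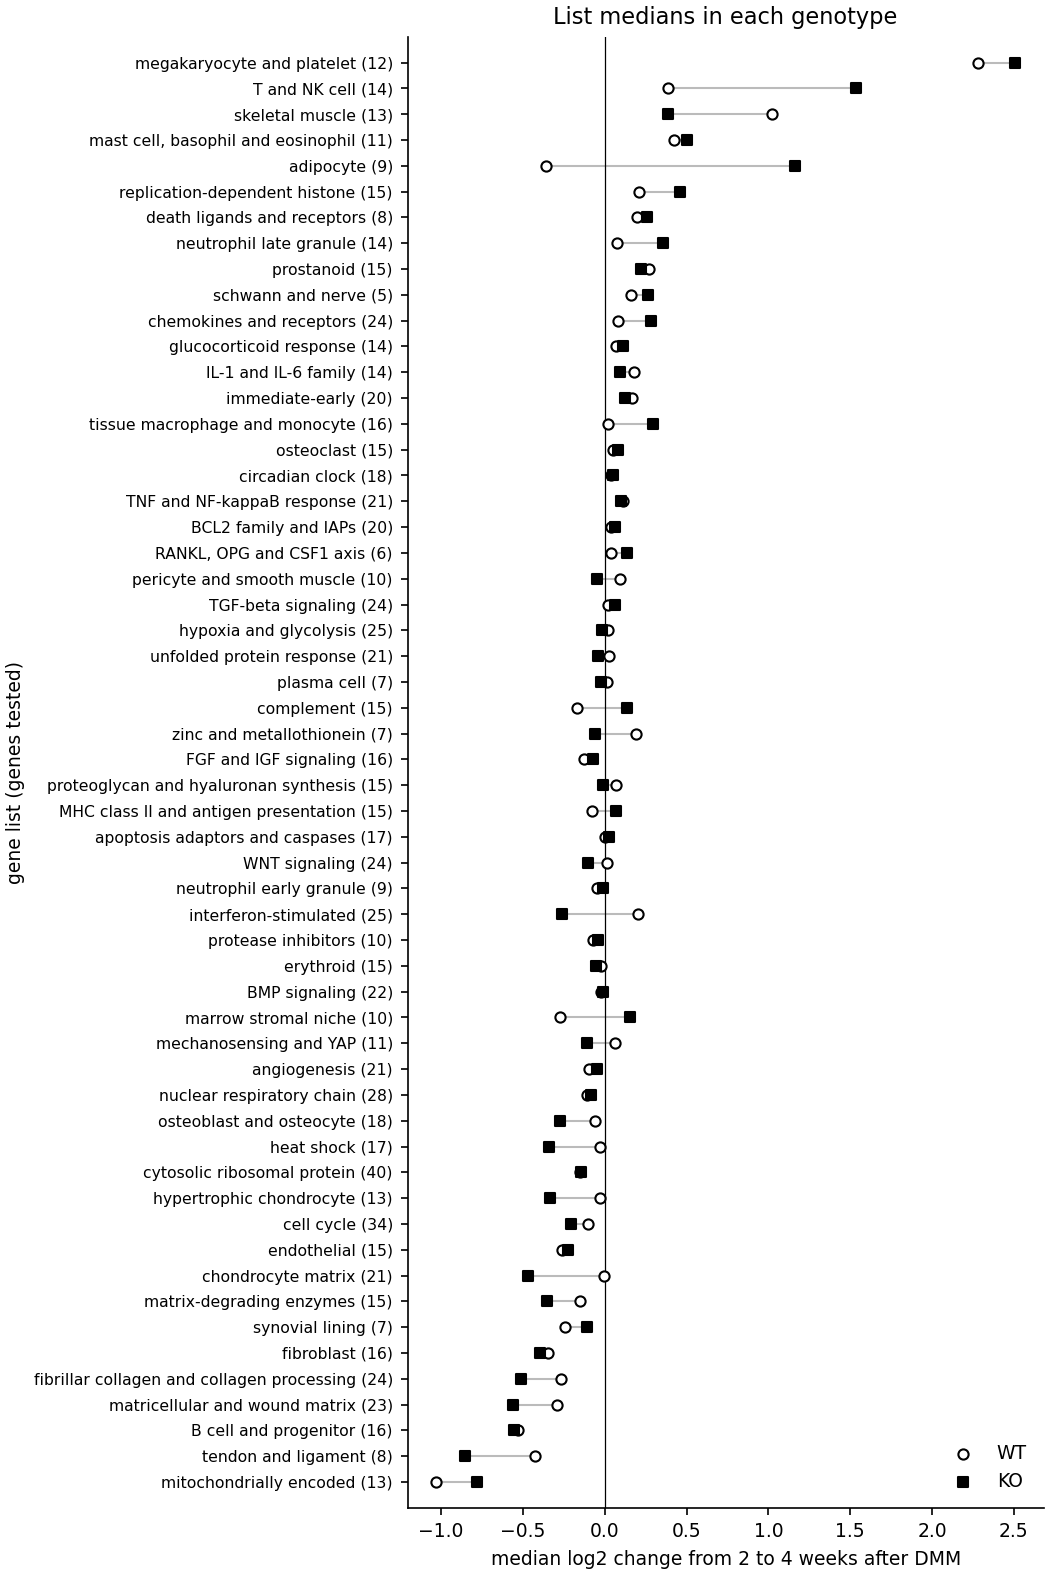
Median log2 change from 2 to 4 weeks after DMM over the tested genes of each of 56 lists (number in brackets), open circles for WT and filled squares for KO, ordered by the mean change of the pair. Megakaryocyte and platelet genes stand at 2.28 and 2.51, mitochondrially encoded genes at -1.03 and -0.78, and the adipocyte, T and NK cell and chondrocyte lists have WT and KO apart.

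In 8 of the 56 lists no gene was called in either direction (edgeR). Beside adipocyte and erythroid genes these were MHC class II and antigen presentation (2 higher and 1 lower at an unadjusted p under 0.05), the circadian clock (3 and 2), the unfolded protein response (3 and 2), zinc and metallothionein genes (2 and 0), mechanosensing and YAP genes (1 and 1) and Schwann cell and nerve genes (1 and 1). The medians of these 6 lists lay between -0.08 and 0.21. Of 25 hypoxia and glycolysis genes 1 rose, Pfkfb4, which tunes glycolysis, and 1 fell, the glycolytic enzyme gene Gapdh. This is near the shares over all genes, 4.83% and 4.03%. At an unadjusted edgeR p under 0.05, 3 of the list were higher and 2 lower. Of 25 interferon-stimulated genes 0 rose and 1 fell, Ifi27l2a (change -0.57, SE 0.09, edgeR adjusted p = 0.0019), again near the share over all genes. At an unadjusted edgeR p under 0.05, 1 of these was higher and 2 lower.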

How the data were processed

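Total RNA of 8 pools of mouse knee articular cartilage was sequenced by the authors from poly(A) libraries (TruSeq Stranded mRNA kit). The deposited tables hold, per gene, RSEM expected counts and TPM. Per the submitters' processing notes, quantification used RSEM 1.2.17 on STAR 2.6.0a alignments after FastQC 0.11.8, with the builds GRCh38 and hg38, whereas the gene IDs are mouse and the study's methods name GRCm38; whether counting used strand is not given in the sources used here. The labels name another extraction kit than the methods. Names and coordinates came from GENCODE M21 (GRCm38): 52403 of 52636 IDs matched, and unmatched IDs held 0.019% to 0.0359% of counts.

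From the deposited expected counts, rounded to whole numbers, 12538 protein-coding genes with TPM over 1 in at least 1 library were tested with edgeR 4.0.16 (TMM, glmQLFit, glmQLFTest, R 4.3.3), with BH adjustment and a threshold of 0.05: week plus genotype in the 4 DMM libraries, and week by surgery in all 8, with a genotype-by-surgery term. Genotype was the pair because each group has 1 library. Changes within 1 genotype used a prior count of 2. Lists were described by counts and medians only. The fits were tested on simulated counts. DESeq2 1.42.0, limma 3.58.1 on log2(TPM + 1) and log2(TPM + 0.1), other scalings and filters, other models and leaving out each library were the alternatives. Intervals are 95% and cover the fitted spread.

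The members, gene lists and motifs were chosen with earlier results of these data known. Genes named were the 10 with the lowest p in each direction of each test, up to 4 genes per list with mean TPM of at least 1 and the largest change, and a few genes the study discusses. Comp, Ucma, Il7r, Kera, Gsn, Pi16, C1qa, C1qb, Ptgs1, Zfp36 and, in a plot, Col10a1 were named after their values were seen, as were F2rl2 and Gp1ba. A few list members are counted with their lists and not reported here by name. Depth limits genes of low level, and depth covers counting error only.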

Additional observations from a re-analysis of the deposited data

Results flagged for a closer look

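The week change differed between DMM and sham, by the test of the difference itself (edgeR over the 8 libraries), in 51 genes that were higher and 4 that were lower after DMM. The differences of the genes with the lowest p were 1.57 for Frzb, 1.39 for Snorc, 1.21 for Chad, 1.22 for Cytl1, 1.204 for Cilp2, 1.01 for Cilp, 1.03 for Meltf, 1.14 for Ndufa4l2 and 1.08 for Tnfrsf11b. In all 9 the sham pairs fell in both genotypes. For Serpina1d, one of a family of near-identical protease inhibitor genes whose reads may be split between copies, the difference was 1.95; it went from 4.59 and 7.85 to 11.2 and 11.5 scaled CPM after DMM and fell in both sham pairs, by 1.21 and 0.90.

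Lower week changes after DMM were called for Lars2 (difference -2.64), Zbed6, a zinc finger gene that lies inside an intron of another gene (-1.81), B3gnt2, a glycosyltransferase that extends sugar chains (-0.93), and Mup22, of the near-identical major urinary protein genes (-7.29). In the first 3 the sham pairs rose in both genotypes. So did those of Mup22, on few expected counts, from 4 to 8 in WT and from 0 to 6.75 in KO. Mup22 had 40.2 and 18 expected counts at 2 weeks and 0 and 1 at 4 weeks after DMM, so its fitted difference depends on the prior count and is no measure of size.

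Some genes went in opposite directions in WT and KO after DMM, by at least 0.5 each; with 1 pool per genotype and week the difference was not tested. The KO change minus the WT change was -1.85 for Col2a1, -1.18 for Col9a2 and -2.73 for the cartilage protein gene Matn3 (3.48 to 6.82 scaled CPM in WT, 6.59 to 1.82 in KO). It was -1.13 for the heat shock gene Hspa1a. It was 2.04 for Cfd, adipsin, which went from 60.1 to 38.2 scaled CPM in WT and from 38.9 to 102 in KO, and 1.78 for Cidec, of the fat droplet. As lists, the KO median change minus the WT median change was 1.52 for adipocyte genes and -0.46 for interferon-stimulated genes.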

How the results depend on the processing

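Counts of genes moved with the tool and the error estimate. For 4 against 2 weeks after DMM, 605 higher and 505 lower, DESeq2 called 136 and 101, limma 1813 and 172 on log2(TPM + 1) and 1821 and 174 on log2(TPM + 0.1), total-count scaling 1448 and 408, no TPM filter 954 and 850, leaving out hemoglobin genes 989 and 788, the fit over all 8 libraries 315 and 201, and the fit with no genotype block 158 and 85. Without 1 of the 4 DMM libraries, in the fit over the other 7, where the arm left with 1 library is assumed to vary like the others, 155 to 262 rose and 90 to 139 fell. RLE and upper-quartile scaling, genes of all types and at least 50 counts in every library stayed within 1.5 times of both counts. For the difference from sham, 51 higher and 4 lower, limma gave 20 and 8 on log2(TPM + 1) and 19 and 9 on log2(TPM + 0.1), total-count scaling 12 and 2, no TPM filter 102 and 15, genes of all types 18 and 1, at least 50 counts in every library 44 and 2, DESeq2 39 and 0 (175 and 63 at an unadjusted p under 0.05), and the edgeR fit with no genotype-by-surgery term 0 and 0 (187 and 70 at an unadjusted p under 0.05). Leaving out 1 library gave 36 to 241 higher and 4 to 193 lower, the lowest without the WT sham library at 2 weeks, the highest without the KO sham library at 4 weeks, and without each of the other 6 libraries over 1.5 times both counts. The rule of 2-fold in both genotypes, 94 and 18, gave 58 and 5 on TPM + 1 and 215 and 106 at a log2 threshold of 0.58.

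On TPM + 1, list medians became 2.12 for megakaryocyte and platelet, -0.17 for fibrillar collagen, -0.34 for B cell genes, and turned to 0.0063 for chondrocyte matrix and 0.021 for matrix-degrading enzymes, where the median over all genes is 0.16. In all, 25 of 56 list medians turned on that scale, all from below to above 0, erythroid, cell cycle, ribosomal and nuclear respiratory chain genes among them. B cell genes had -0.48 with total-count scaling and -0.53 in WT alone, and T and NK cell genes 0.39 in WT alone. Adamts5 turned to 0.070 and 0.10 and Tnfsf10 to 0.087 and 0.14 on the 2 TPM scales, and Tnfsf10 to 0.012 with total-count scaling. Without 1 library each, Adamts5 ran from -0.29 to 0.11, Tnfsf10 from -0.23 to 0.14, Acan from -0.70 to 0.018 and Col2a1 from -1.25 to 0.57. Of 85 named genes called between the weeks after DMM, 33 passed under every alternative run for them and none turned; of 18 named genes called against sham, 0 passed under every alternative, all 18 being lost without the genotype-by-surgery term, and none turned. The causes were not tested. The labels give no replicate numbers, so the pairing is by genotype, as the block of the reported fit.

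With 1 pool per genotype and week, the error is the disagreement of WT and KO, combined with a spread shared across genes. Week is confounded with lane and fragment length, and genes under a few scaled CPM rest on few counts.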
